A study of Mus musculus with 6 samples.

Results

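The clustered protocadherins are neuronal cell-surface adhesion proteins, and their genes were taken here as every gene of the deposited mouse cortex table whose symbol begins with Pcdha, Pcdhb or Pcdhg. The rule gave 56 of the 17348 genes listed, of which 14 belonged to the alpha, 21 to the beta and 21 to the gamma cluster. The alpha genes comprised 12 alternate isoforms and the C-type isoforms Pcdhac1 and Pcdhac2. The gamma genes comprised 12 of the A subfamily, 6 of the B subfamily and the C-type isoforms Pcdhgc3, Pcdhgc4 and Pcdhgc5. Pcdhb1 and Pcdhgb8 were not analysed here.

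Clustered protocadherins bind homophilically through extracellular cadherin repeats, and the combination carried by a neuron gives its branches an identity that serves self-avoidance of dendrites, axon tiling and synapse formation. Each variable exon has its own promoter. In most neurons a few alternate promoters per chromosome are chosen by a process that involves CTCF, cohesin, promoter methylation and distant enhancers, whereas the C-type isoforms are used more uniformly. In the alpha and gamma clusters every variable exon is spliced to the same constant exons, which encode a common cytoplasmic tail, and the beta genes have no constant exons.

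RNA was sequenced from cortices of E18.5 embryos, 3 control and 3 Ybx1 conditional knockout (cKO) libraries, described as independent biological replicates. Controls, labelled WT, were littermates of the cKO embryos, which carried Nestin-Cre together with Ybx1 fl/fl. The study designates Ybx1 fl/fl mice without Nestin-Cre as controls, but its sequencing methods call the control littermates wild type, so whether these control libraries held the floxed allele is not settled. Nestin-Cre acts in neural progenitors and their descendants so that cells of other origin, such as microglia, are not its target. Ybx1 encodes an RNA- and DNA-binding protein, and the comparison addressed which transcripts differ in the embryonic cortex when it is deleted.

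Each library held 15091951 to 16885451 estimated counts. Ybx1 stood at 1089 ± 182 counts per 1000000 (CPM; SD, n = 3) in control and 24.6 ± 0.519 CPM in cKO libraries, 2.25% of control. Neurod6, a marker of cortical excitatory neurons, stood at 1032 ± 199.8 TPM (transcripts per 1000000, a level per length) in control and 1017 ± 75.3 TPM in cKO libraries, and Ttr, a choroid plexus marker, held at most 1 count. The Y-linked genes Ddx3y, Eif2s3y and Kdm5d held at least 714 counts in every control and at most 1 in every cKO library, so the sex of the embryos and the genotype cannot be told apart. Control replicate 2 stood apart from the other control libraries, with the lowest summed level of all 3 clusters among the controls, and values without it are given beside the results that it moved. In these bulk samples, fewer cells of a type and less RNA per cell cannot be told apart.

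All members lie on chromosome 18 of GRCm38. By RefSeq positions the alpha cluster spans 36930285 to 37188897, the beta cluster from Pcdhb2 onwards 37294840 to 37521419, and the gamma cluster 37661775 to 37841873. In the GENCODE models every alpha transcript had 4 exons, of which 3, together 2860 bases, were common to the cluster. The common exons made up 48.6% to 54.9% of each alpha transcript. Every gamma transcript likewise had 4 exons, and the 3 common ones, 2116 to 2119 bases, made up 41.7% to 45.5% of it. The 21 beta transcripts each had 1 exon and shared none.

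The deposited estimated counts carried a trace of these common exons. Of the 84 alpha values above 0, 84 were not whole numbers, and so were 126 of 126 gamma values, at a tolerance of 0.005 counts. None of the 126 beta values was fractional, and over all genes 11.5% of values were. A fractional count arises when the quantification program divides reads that fit several transcripts, so the alpha and gamma values rest partly on reads that no single member can claim, while the beta values were whole throughout.

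The effective lengths implied by the count and FPKM columns (fragments per kilobase of transcript, scaled to library size) showed the same thing from another side. They ran from 4321 to 4774 bases for gamma genes and from 4924 to 6307 bases for alpha genes, longer than the longest first exon of either cluster, 2961 and 3028 bases. Each alpha or gamma value thus refers to the variable and common exons together. Pcdha6, at 6307 bases, was the one alpha gene whose effective length exceeded its GENCODE transcript. For each alpha and gamma member, the level and the difference given below depend on how the program divided the common reads, and the part of that division in any result was not tested.

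**Figure D1:**
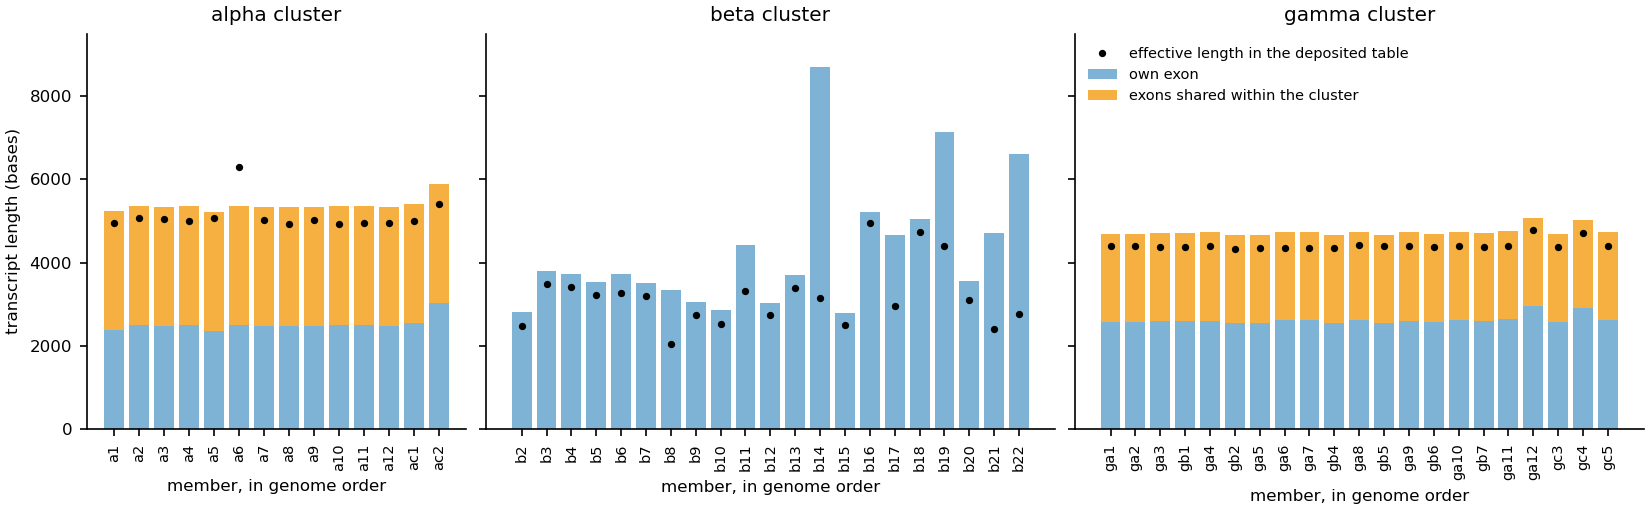
Length in bases of the GENCODE transcript of each member, in genome order, split into its own exon (blue) and the exons shared within its cluster (orange), with the effective length in the deposited table as black points. The alpha and gamma bars are divided and the beta bars are not, and the points of alpha and gamma lie above the blue part; several beta points lie far below the bar because a longer GENCODE model was matched.

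Levels per length differed more between members than between groups. Pcdhgc3, a gamma C-type isoform linked to dendrite growth of cortical neurons, was the most abundant member. It stood at 184, 118 and 152 TPM in control replicates 1, 2 and 3 and at 159, 150 and 149 TPM in cKO replicates 1, 2 and 3. The cKO values lay inside the control range, and Pcdhgc3 took 32.5 ± 2.79% of all gamma counts in control and 33.3 ± 0.927% in cKO libraries (SD, n = 3).

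The next gamma genes in level were Pcdhga11, at 33.3 ± 3.31 TPM in controls and 36.8 ± 1.39 TPM in cKO, and Pcdhgb6, at 28.6 ± 3.17 and 29.1 ± 1.04 TPM. Pcdhgc4, which neurons need for survival during development, followed at 26.3 ± 3.17 TPM in controls and 31.5 ± 1.20 TPM in cKO. In control libraries the values of Pcdhgb6 overlapped those of both neighbours, while the lowest Pcdhga11 value, 29.5 TPM, lay above the highest Pcdhgc4 value, 28.7 TPM. Pcdhgc5, the remaining C-type isoform, was the lowest gamma gene, at 4.63 ± 0.764 and 5.23 ± 0.578 TPM.

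The alpha cluster was led by the C-type isoform Pcdhac2, known for its part in the tiling of serotonergic axons, at 17.7 ± 3.90 TPM in controls and 22.2 ± 3.78 TPM in cKO. Pcdha12, the alternate isoform nearest the C-type genes, came next at 10.9 ± 2.85 and 11.8 ± 1.99 TPM, and Pcdha9 followed at 9.20 ± 1.45 and 8.05 ± 0.771 TPM. The control values of Pcdhac2 lay above those of Pcdha12, and the values of Pcdha12 and Pcdha9 overlapped. Pcdhac1, the other alpha C-type isoform, stood at 2.23 ± 0.977 and 2.67 ± 0.383 TPM. Pcdha8 was the lowest alpha gene in controls, at 0.650 ± 0.132 TPM in controls and 0.783 ± 0.609 TPM in cKO, where Pcdha6 was at 0.767 ± 0.454 TPM, and Pcdha8 held under 3 counts in cKO replicate 1.

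Beta levels spread less. Pcdhb20 at 11.7 ± 1.28 TPM, Pcdhb17 at 11.6 ± 2.06 TPM and Pcdhb7 at 8.44 ± 1.34 TPM in control were the most abundant, the first 2 of them within each other's spread. In cKO libraries the same genes stood at 12.8 ± 1.25, 13.0 ± 0.497 and 8.81 ± 0.590 TPM. The lowest beta gene was Pcdhb6, at 1.42 ± 0.693 TPM in controls and 1.62 TPM in cKO. The median control level was 5.49 TPM over the alpha, 3.07 TPM over the beta and 15.7 TPM over the gamma genes.

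The order of levels was close to the same in both groups. Across genes, which are not independent replicates, Spearman's rho between the mean control and mean cKO TPM was 0.923 over the 12 alpha alternate isoforms, 0.951 over the 21 beta genes and 0.928 over the 18 gamma A and B genes. The effective number of members is the exponential of the entropy of their shares of the summed TPM of the cluster. It was 10.6 ± 0.172 in control and 10.5 ± 0.691 in cKO libraries for alpha. For beta it was 16.8 ± 1.24 and 16.98 ± 0.374, and for gamma 13.0 ± 0.762 and 12.6 ± 0.272 (SD, n = 3). None of these differences exceeded the spread between replicates. Without control replicate 2 the control mean was 10.7 for alpha, 17.5 for beta and 12.8 for gamma.

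**Figure D2:**
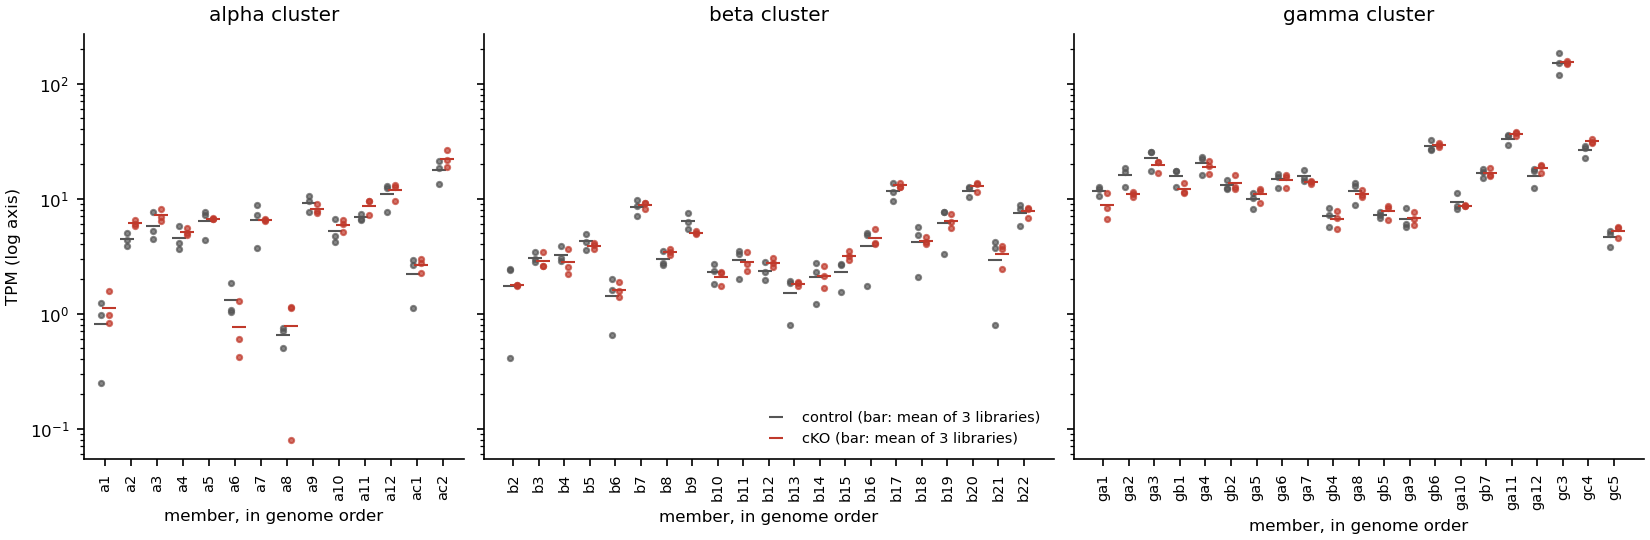
Level of each of the 56 members in TPM on a log axis, in genome order within its cluster, with 1 point per library and a bar at the mean of 3 control (grey) or 3 cKO (red) libraries. Pcdhgc3 stands above all other members in both groups, and the control library with low values in several beta genes is replicate 2.

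Summed over the cluster, alpha and beta levels overlapped between groups, and the gamma sum was lower in cKO libraries on the CPM scale. The gamma genes summed to 1029, 870 and 941 CPM in control replicates 1, 2 and 3 and to 858, 856 and 847 CPM in the cKO replicates. Every cKO library lay below every control library, the closest pair being 870 and 858 CPM, and the mean was 90.1% of control. The exact two-sided permutation p for complete separation of 3 against 3 is 0.10, the smallest this design allows.

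The gamma difference depended on the scale. Summed TPM was 459 ± 69.5 in control and 454 ± 3.24 in cKO libraries, and the groups overlapped. Summed FPKM was 211 ± 15.4 and 196 ± 3.69, again with overlap. The median log2 ratio of cKO to control over all genes tested was 0.003 in CPM, 0.05 in FPKM and 0.14 in TPM, and the gamma ratio in TPM, -0.013, lay below the last of these.

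The alpha sum was 208, 166 and 216 CPM in the control replicates and 217, 191 and 201 CPM in the cKO replicates, with 1 control library below and the other controls within the cKO range. The beta sum was 157, 112 and 148 CPM in control and 129, 128 and 142 CPM in cKO libraries, again overlapping. Without control replicate 2, the log2 ratio of the sums became -0.06 for alpha, -0.20 for beta and -0.21 for gamma, against 0.05, -0.07 and -0.15 with all libraries.

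**Figure D3:**
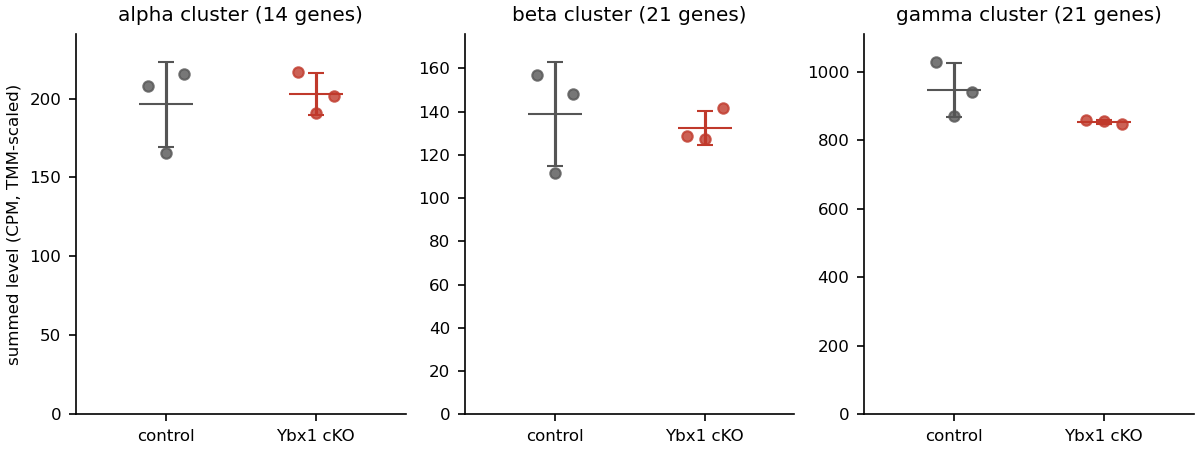
Summed level of each cluster in CPM per library (points), with the mean and SD of 3 libraries as a line and bars. The alpha and beta points of the groups overlap, and the 3 gamma cKO points lie below the lowest control point.

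No member passed the threshold of 0.05 after Benjamini-Hochberg adjustment over all 13570 genes tested with edgeR's quasi-likelihood test, where 0.0737% of genes did. At an unadjusted p under 0.05, 8 of 56 members were lower in cKO libraries, against 3.49% of all genes tested, and 0 were higher, against 3.14%. The 8 were Pcdha6, Pcdha9, Pcdhb9, Pcdhga1, Pcdhga2, Pcdhga3, Pcdhgb1 and Pcdhga7. By separation of the groups, every cKO library lay below every control library for 9 members, against 6.93% of all genes, and above for 2 members, Pcdha2 and Pcdhb15, against 7.35%. This separation was in CPM. In TPM it held for 3 of the 9, Pcdhb9, Pcdhga2 and Pcdhga7, against 2.43% of all genes, while Pcdha2, Pcdhb15 and Pcdhgc4 were separated upwards, against 19.2%. DESeq2 called 1 member after adjustment, Pcdhga2, and 98 genes over the whole table.

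All 56 members passed the filter on low counts. The log2 fold change of cKO over control was below 0 in 5 of 14 alpha, 13 of 21 beta and 16 of 21 gamma genes, against 49.4% of all genes tested. The median was 0.10 for alpha, -0.06 for beta and -0.14 for gamma genes, beside 0.003 over all genes tested. These counts moved with the libraries, and without control replicate 2 the log2 fold change was below 0 in 47 of 56 members. The 49.4% belongs to the fit with all libraries, and the share over all genes without control replicate 2 is not given here.

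The first 4 genes of the gamma cluster in genome order, Pcdhga1, Pcdhga2, Pcdhga3 and Pcdhgb1, were all among the 8. Pcdhga2, whose RefSeq span runs from 37668927 to 37841870, gave the clearest separation. It stood at 36.9, 29.2 and 32.7 CPM in control replicates 1, 2 and 3 and at 20.6, 19.6 and 21.5 CPM in the cKO replicates. All 3 cKO libraries lay well below the lowest control. Its log2 fold change was -0.68 ± 0.128 (SE; unadjusted p = 0.000499, adjusted p = 0.210, edgeR), and its share of gamma counts was 3.47 ± 0.118% in control and 2.41 ± 0.125% in cKO libraries. After adjustment it passed with DESeq2, with the length and GC correction and without control replicate 2, the adjusted p being 0.00227, 0.0178 and 0.00842. These settings called 98, 153 and 122 genes over the whole table, against 10 in the main fit. Pcdhga2 passed in 4 of 16 alternatives.

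Pcdhgb1, the first B subfamily gene of the cluster, stood at 34.6, 28.7 and 33.2 CPM in control and at 20.7, 21.4 and 25.2 CPM in cKO libraries. The groups did not overlap, and the log2 fold change was -0.52 ± 0.133 (unadjusted p = 0.00346, adjusted p = 0.408, edgeR). Without control replicate 2 the adjusted p was 0.0386, in a fit that called 122 genes over the whole table.

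Pcdhga1, the first gene of the cluster, stood at 25.5, 24.1 and 23.2 CPM in control and at 15.6, 12.5 and 20.9 CPM in cKO libraries. The cKO values were scattered but lay below all control values, with a log2 fold change of -0.57 ± 0.184 (unadjusted p = 0.0126, adjusted p = 0.557, edgeR). Pcdhga3 stood at 51.0, 39.6 and 48.9 CPM in control and at 30.8, 39.2 and 38.8 CPM in cKO libraries. Only a narrow gap separated control replicate 2 from the highest cKO library there, and the log2 fold change was -0.36 ± 0.143 (unadjusted p = 0.0332, adjusted p = 0.686, edgeR).

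Farther along the cluster only Pcdhga7 was below an unadjusted p of 0.05. It stood at 30.2, 32.1 and 33.8 CPM in control and 26.1, 25.7 and 24.9 CPM in cKO libraries, without overlap, and the log2 fold change was -0.32 ± 0.109 (unadjusted p = 0.0160, adjusted p = 0.585, edgeR). Pcdhga10 was also separated, at 17.2 to 21.8 CPM in control and 16.1 to 16.4 CPM in cKO libraries. At the far end, Pcdhga11 had a log2 fold change of 0.0012 ± 0.0976 and Pcdhga12 of 0.09 ± 0.129, with overlapping groups.

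Across the 18 gamma A and B genes, Spearman's rho between genome order and log2 fold change was 0.668, and it ran from 0.585 to 0.723 over the main and 16 alternative fits. It is a description across genes that share common exons, libraries and read division. The same rho was -0.413 over the 12 alpha alternate isoforms, with a range of -0.622 to -0.161 over those fits, and 0.429 over the 21 beta genes, with a range of 0.261 to 0.469. Without control replicate 2 it was 0.723 for gamma, -0.189 for alpha and 0.261 for beta, and without cKO replicate 2 it was -0.161 for alpha. Summed over the first 6 genes of the row, the level was 204 ± 16.8 CPM in control and 156 ± 11.01 CPM in cKO libraries, 76.4% of control and without overlap. The next 6 genes summed to 136 ± 7.55 and 120 ± 7.11 CPM, 88.8% of control and overlapping, and the last 6 to 230 ± 4.601 and 221 ± 4.26 CPM, 95.8% of control and without overlap. This division into 6 genes each was chosen after the values were seen, and carries no test.

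On the TPM scale the log2 ratio of the 3 successive sums was -0.25, -0.03 and 0.08, so their order stayed while the direction of the last turned. In TPM the groups overlapped in the first sum as well, because control replicate 2 lay within the cKO range.

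**Figure D4:**
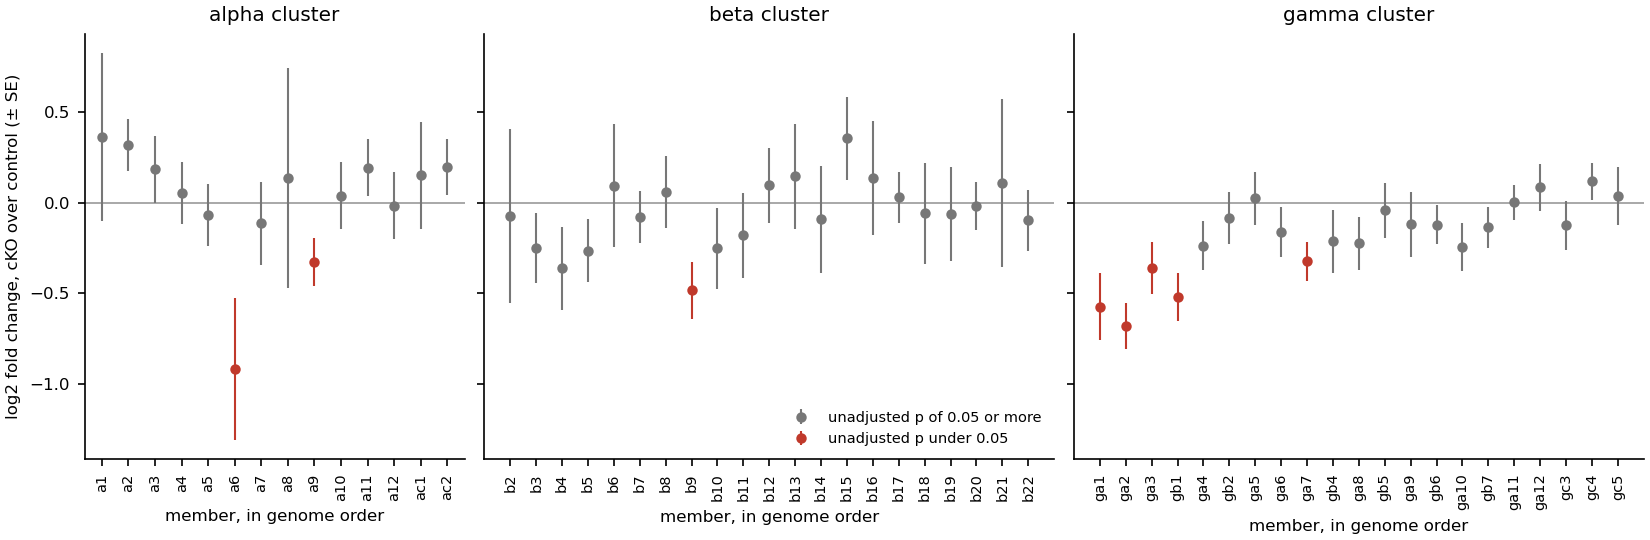
Fitted log2 fold change of cKO over control with its SE for each member, in genome order within its cluster, with members at an unadjusted p under 0.05 in red. The first 4 gamma genes lie between -0.36 and -0.68, while Pcdhga11, Pcdhga12 and the 3 C-type genes lie between -0.12 and 0.12.

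The C-type isoforms, which are not chosen stochastically, gave no value below an unadjusted p of 0.05. The log2 fold change was 0.20 ± 0.154 for Pcdhac2, 0.15 ± 0.293 for Pcdhac1, -0.12 ± 0.134 for Pcdhgc3, 0.12 ± 0.101 for Pcdhgc4 and 0.04 ± 0.160 for Pcdhgc5, and the groups overlapped in CPM in all 5. Pcdhgc4 was separated upwards in TPM and in FPKM, against 19.2% and 11% of all genes tested. As a share of the gamma counts, Pcdhgc4 stood at 6.01%, 6.39% and 6.04% in control and at 7.65%, 7.23% and 7.28% in cKO libraries. Each cKO share was above each control share, with an exact permutation p at the floor of 0.10 for 3 against 3. The shares of Pcdhga11 and Pcdhga12 were separated in the same way, at 6.93% to 7.75% in control against 7.76% to 8.26% in cKO libraries and 3.50% to 3.84% against 3.97% to 4.69%. A share is higher when other members of the sum are lower, and the levels of all 3 genes in CPM overlapped between groups.

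In the alpha cluster, Pcdha6 had the largest difference, with a log2 fold change of -0.92 ± 0.390 (unadjusted p = 0.0434, adjusted p = 0.731, edgeR). It stood at 3.07, 3.396 and 5.14 CPM in control and at 1.11, 1.64 and 3.38 CPM in cKO libraries, and cKO replicate 3 lay within the control range. Pcdha9 stood at 21.8, 19.9 and 23.2 CPM in control and 19.0, 16.1 and 16.6 CPM in cKO libraries, without overlap, with a log2 fold change of -0.33 ± 0.131 (unadjusted p = 0.0336, adjusted p = 0.686, edgeR). Pcdha8, its neighbour, had a log2 fold change of 0.14 ± 0.608.

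The largest positive values of the alpha cluster came from its first genes. Pcdha2 stood at 11.7, 10.2 and 9.73 CPM in control and 13.9, 13.1 and 12.3 CPM in cKO libraries, and every cKO library was above every control (log2 fold change 0.32 ± 0.143, unadjusted p = 0.0534, adjusted p = 0.763, edgeR). Pcdha1, the most upstream alpha gene, had the largest positive fitted value of the cluster at 0.36 ± 0.461, but control replicate 2 held 0.644 CPM against 2.76 and 2.12 CPM in the other controls. Without that library the log2 fold change was -0.06.

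In the beta cluster, whose counts were whole, Pcdhb9 stood at 7.84, 7.85 and 9.04 CPM in control and 6.07, 5.85 and 5.75 CPM in cKO libraries. The groups did not overlap, and the log2 fold change was -0.48 ± 0.157 (unadjusted p = 0.0130, adjusted p = 0.558, edgeR). Pcdhb4 was next among the lower genes at -0.36 ± 0.227, with overlap. Pcdhb5 was separated, at 5.96 to 7.27 CPM in control and 5.01 to 5.60 CPM in cKO libraries.

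Pcdhb15 had the largest positive value, 0.35 ± 0.230, and stood at 3.01, 1.99 and 2.95 CPM in control and at 3.10, 3.71 and 3.32 CPM in cKO libraries, where the closest pair was 3.01 and 3.10 CPM. Pcdhb13 was next at 0.14 ± 0.289, with overlapping groups. For Pcdhb2, Pcdhb6, Pcdhb13, Pcdhb14, Pcdhb15, Pcdhb16, Pcdhb17, Pcdhb18, Pcdhb19 and Pcdhb21, control replicate 2 was the lowest of the 6 libraries. In Pcdhb21 it held 0.995 CPM beside 4.64 and 3.91 CPM in the other controls.

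**Figure D5:**
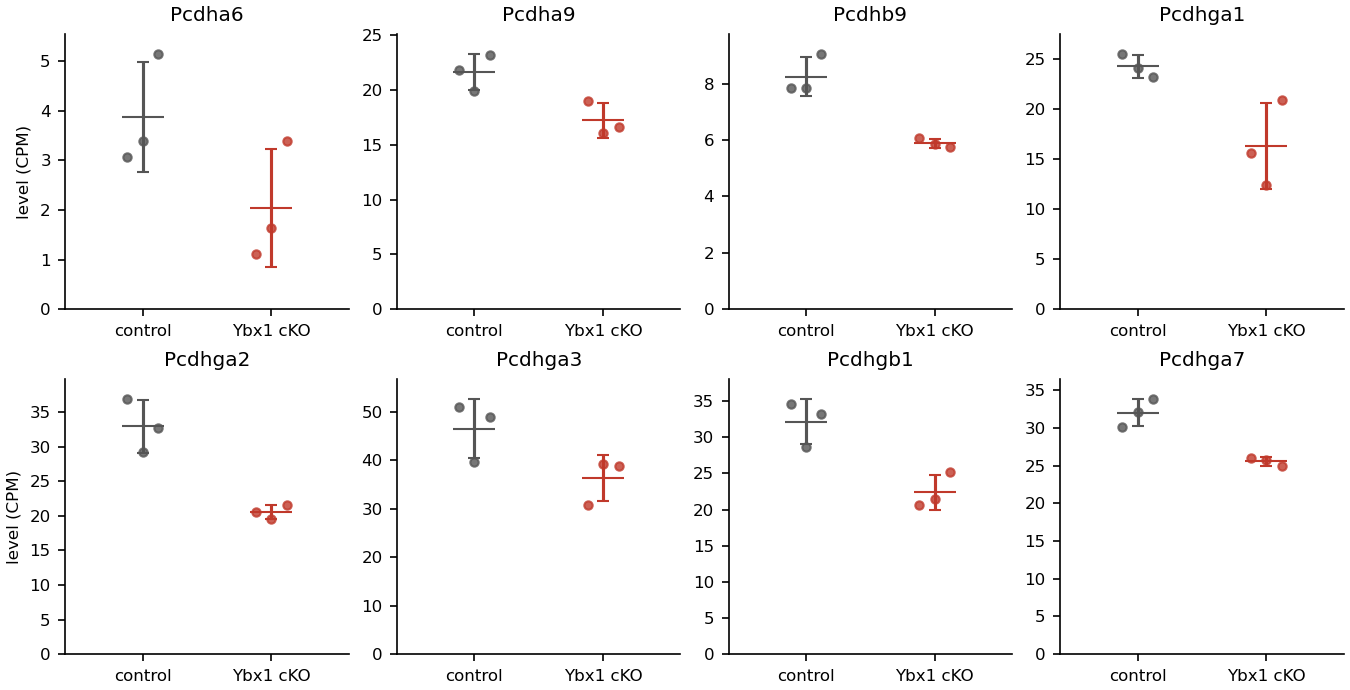
Level in CPM per library (points) of the 8 members at an unadjusted p under 0.05, with the mean and SD of 3 control (grey) and 3 cKO (red) libraries, each axis starting at 0. The groups are apart in 7 panels and overlap in that of Pcdha6.

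Related genes were counted from lists. Over all genes tested, 3.14% were higher and 3.49% lower at an unadjusted p under 0.05. A log2 fold change below 0 was held by 49.4%. These shares stand beside the counts of every list below. Of 12 non-clustered protocadherins, which lie outside the clusters and have no common exons, 1 was higher and 0 were lower at an unadjusted p under 0.05, and 11 had a positive log2 fold change, with a median of 0.24. Their summed level was 484 to 628 CPM in control and 636 to 678 CPM in cKO libraries, without overlap. The list and this sum hold X-linked genes, and the sex of the embryos and the genotype cannot be told apart. In the fit without X- and Y-linked genes, 9 of the 10 tested were positive, with a median of 0.24. The sum without them is not given here. Pcdh15, a tip-link protein of hair cells, was the gene with that p, at 0.87 ± 0.295. Without control replicate 2 the median was 0.12, with 12 of 12 positive, and Pcdh15 stood at 0.61. After the length and GC correction the median was also 0.12, with 11 of 12 positive, and Pcdh15 stood at 0.75. The 2 most abundant per length (TPM), Pcdh8 and Pcdh9, had log2 fold changes of -0.04 ± 0.149 and 0.25 ± 0.189, the latter 0.04 without control replicate 2.

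Of 15 classical cadherins tested of 19, 3 were higher and 0 lower, namely Cdh9 at 1.33 ± 0.253, Cdh6 at 0.66 ± 0.185 and the endothelial Cdh5 at 0.41 ± 0.126. Cdh2, the neuronal cadherin and the most abundant, had a value of 0.06 ± 0.118. Of 21 genes that act in the choice of protocadherin promoters, 1 was higher and 0 lower. That gene was Dnmt3a, a DNA methyltransferase, which stood at 148, 115 and 133 CPM in control and 185, 174 and 164 CPM in cKO libraries, with a log2 fold change of 0.40 ± 0.121 (unadjusted p = 0.00932, adjusted p = 0.512, edgeR). The other DNA methyltransferases of the list, Dnmt1 and Dnmt3b, had values of -0.16 ± 0.107 and -0.07 ± 0.188, with overlapping groups. The cohesin subunits Rad21 and Smc1a had values of 0.02 ± 0.103 and 0.01 ± 0.101.

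Of 22 binding partners and effectors of the protocadherin tail, 1 was higher and 1 lower. Ptk2b, the kinase Pyk2 that the tails bind and inhibit, had a log2 fold change of 0.58 ± 0.161. Marcks, an actin-linked membrane protein downstream of the gamma tail, had one of -0.26 ± 0.106, and Rac1 of -0.03 ± 0.0996. No gene of these 4 lists passed after adjustment over all genes with edgeR's quasi-likelihood test.

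Marker lists of cells that could differ in number were set beside these values, and their part in the results was not tested. The summed level overlapped between groups in all 12 marker lists. It was 4658 to 4689 CPM in control and 4322 to 4694 CPM in cKO libraries for 6 pan-neuronal markers, 457 to 536 and 392.4 to 570 CPM for 7 interneuron markers, and 160 to 257 and 219 to 267 CPM for 5 astrocyte markers. At an unadjusted p under 0.05 the markers that were higher were Syt1 (pan-neuronal, 0.51 ± 0.155), Pax6 (radial glia, 0.31 ± 0.109), Aqp4 (astrocyte, 0.74 ± 0.306) and Pdgfrb (mural, 0.27 ± 0.114), and no marker was lower at that p. Over all genes tested, 3.14% were higher and 3.49% lower by that measure. The lists of these 4 genes were mixed in direction. Log2 fold changes were positive in 3 of 6 pan-neuronal, 2 of 6 radial glia, 3 of 5 astrocyte and 5 of 6 endothelial and mural markers. By separation in CPM, 1 pan-neuronal marker, Stmn2 (-0.15 ± 0.112), was lower and 1 was higher. Over all genes tested the shares were 6.93% and 7.35%. In the lists of cortical identity, intermediate progenitor, oligodendrocyte precursor, interneuron, Cajal-Retzius, microglia, erythroid and choroid plexus markers, 0 genes had an unadjusted p under 0.05 in either direction. Of the 4 choroid plexus markers only 1, Aqp1, passed the filter on low counts and was tested.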

How the data were processed

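The authors sequenced total RNA of E18.5 cortices with an mRNA library kit and deposited 1 table, which gives each gene in each library an estimated count, a TPM and an FPKM. Per the submitters' processing notes, HISAT2 2.2.1, Bowtie2 2.4.5 and RSEM 1.3.1 were used with GRCm38. The annotation and strand setting are not given in the sources used here. The table also holds the authors' group averages of each unit, which were not used.

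Estimated counts were rounded, filtered with filterByExpr (13570 genes kept), scaled by TMM and tested with edgeR 4.0.16 (R 4.3.3) quasi-likelihood, without a replicate block, with Benjamini-Hochberg adjustment. CPM values are TMM-scaled. Common exons came from GENCODE M21 and positions from RefSeq GRCm38.p6. In data simulated from these libraries, 25% of genes changed 1.5-fold, 81.8% of those changed 2-fold and 100% of those changed 4-fold were called, with 8 false calls. Totals limit precision, and 3 counts were taken as the floor. A chi-square test of library pairs within each group found none alike within sampling noise (chi-square per degree of freedom 3.51 to 65.4).

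Members and lists were chosen with earlier results of these data known. Members described with values were the 3 highest and the lowest by TPM and the 2 largest differences each way in each cluster, the C-type genes and those at an unadjusted p under 0.05. Of other lists, genes at such a p and the most abundant were named, except that markers were mostly given by list. Dnmt1 and Dnmt3b were added beside Dnmt3a. Alternatives were DESeq2 1.42.0, other scalings and filters, a length and GC correction (mgcv 1.9.3), a replicate block and omission of each library.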

Additional observations from a re-analysis of the deposited data

How the results depend on the processing

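The number of genes called over the whole table was 10, and it was 98 with DESeq2, 6 without X- and Y-linked genes, 153 after the length and GC correction, 162 when the replicate block was added to it, and 8 to 122 when 1 library was omitted (122 without control replicate 2, 19 without control replicate 3). Members called numbered 0, but 1 under DESeq2, 1 under the length and GC correction and 1 when the block joined that correction (Pcdhga2, adjusted p = 0.00227, 0.0178 and 0.0210), and 0 to 2 when 1 library was omitted. Members lower at an unadjusted p under 0.05 numbered 8, 10 with the correction and block, and 4 to 14 with 1 library omitted (14 without control replicate 2, 5 without control replicate 3, 4 without cKO replicate 2). The share of all genes lower at that p was 3.49% in the main fit and is not given here for the alternatives. A change in these counts is therefore not read as a result about the members. Members whose groups did not overlap numbered 9 lower and 2 higher, and 3 lower in TPM. With 1 library omitted they numbered 10 to 20 lower (20 without control replicate 2) and 2 to 6 higher (6 without control replicate 1, 4 each without control replicate 3, cKO replicate 1 and cKO replicate 3). Separation is easier to reach with fewer libraries, so a rise in these counts does not show that the separation is stable. The share over all genes with 1 library omitted is not given here. Members higher at an unadjusted p under 0.05 numbered 0, and 0 to 1 with 1 library omitted. Of the first 4 gamma genes, Pcdhga2 and Pcdhgb1 kept an unadjusted p under 0.05 in all 16 alternatives, Pcdhga1 in 15 and Pcdhga3 in 13.

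Same-numbered libraries had correlated deviations of 0.088, 0.061 and 0.230, so the numbers were not taken as pairs. Each library correlated best with its own number, which is a hint from the data. With the replicate block 11 genes and 0 members were called, and 8 members were lower.

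The log2 ratio of the gamma sum was -0.15, and -0.013 in TPM. With 1 library omitted it ran from -0.21 to -0.09, that of alpha from -0.06 to 0.12 and that of beta from -0.20 to 0.03. At a tolerance of 0.05 counts, 90.5% of alpha and 93.7% of gamma values were not whole.

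The causes of these shifts were not tested. Among the 27 members described with values, the sign turned for Pcdha8 (-0.032 with the block, -0.10 with the correction and block), Pcdhb17 (-0.056 with the correction, -0.049 with the block too), Pcdhgc5 (-0.0014 with both) and Pcdhga11 (-0.0020 with RLE size factors and DESeq2, -0.012 with upper quartile, -0.014 without the filter, -0.019 with the correction, alone or with the block). With 1 library omitted, signs turned within these ranges: Pcdha1 -0.059 to 0.79, Pcdha8 -0.25 to 0.67, Pcdha12 -0.17 to 0.11, Pcdhac1 -0.14 to 0.34, Pcdhb6 -0.23 to 0.37, Pcdhb7 -0.13 to 0.011, Pcdhb13 -0.13 to 0.34, Pcdhb17 -0.029 to 0.14, Pcdhb20 -0.061 to 0.058, Pcdhga11 -0.018 to 0.033, Pcdhga12 -0.010 to 0.17, Pcdhgc3 -0.22 to 0.020 and Pcdhgc5 -0.032 to 0.13. All of these genes had overlapping groups. Of the other 29 members, 5 turned sign under some other alternative and 15 when 1 library was omitted. The sums over 6 gamma genes, the counts of separated members and the non-clustered protocadherins were recomputed under alternatives chosen after the data were seen, and the first gamma sum stayed between -0.45 and -0.25.

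For the thinnest members, such as Pcdhb2 with 9 counts in control replicate 2, few counts limit the precision, and 3 libraries a group allow no exact p under 0.10.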
